A study of Mus musculus with 4 samples.

Results

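The 10 genes described here encode the 5 subunits of the transcription factor NF-κB (*Nfkb1*, *Nfkb2*, *Rel*, *Rela*, and *Relb*) and 5 proteins that hold it in check or modulate it in the nucleus (*Nfkbia*, *Nfkbie*, *Nfkbiz*, *Tnfaip3*, and *Bcl3*). They were chosen by name, as 10 of the 21887 protein-coding genes on chromosomes with peaks, because the study examined TNF-α and NF-κB upstream of the collagen IV genes in liver sinusoidal endothelial cells (LSECs). Acetylation of lysine 27 of histone H3 (H3K27ac), a mark of active promoters and enhancers, was profiled by ChIP-Seq in LSECs isolated from mice, in 2 libraries named here replicates 2 and 3 as their records number them. Each has an input library of chromatin that was not immunoprecipitated, which was not analysed here on its own. All libraries share 1 condition, so there is no comparison between groups and no test. The sample records give neither genotype, treatment, nor age of the mice. In the methods, LSECs were taken with CD146 beads from perfused livers and cultured for some hours. The mice named there carried *Col4a1* fl/wt with or without *Cdh5* CreERT2, or else *dCas9-KRAB* together with *Cdh5* CreERT2, which places the recombinase under a vascular endothelial promoter. Which of these mice gave the libraries, and whether the libraries came from separate mice, is not stated.

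NF-κB acts as dimers of its subunits. In the resting cell, inhibitors of the IκB family keep these dimers in the cytoplasm. Inflammatory signals such as TNF-α activate a kinase complex that marks the inhibitors for destruction, the dimers enter the nucleus, and among the genes they switch on are several of their own inhibitors, which closes a negative feedback loop. In sinusoidal endothelium the pathway is known for its control of leukocyte adhesion molecules and chemokines.

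Peaks of each library were those called by the authors. The list of replicate 3 held 64498 peaks, 2.39 times the 26975 of replicate 2, and the number of reads behind either list is unknown. Overlapping peaks were merged into regions, and a region was called shared when it held a peak of both libraries. There were 64629 regions, of which 24199 were shared, 40204 came from replicate 3 only, and 226 from replicate 2 only. Fold enrichment, the ratio of a peak's signal to its background as the authors' caller gave it, was used to rank peaks within a list and not to compare amounts between libraries. Percentiles below are the share of peaks of the same list with a lower or equal fold enrichment. The label of the cells was checked at marker genes. Of 17 LSEC markers, 4 had a region within 1 kb of a gene end in replicate 3 only. A shared region lay within 1 kb of a gene end in the other 13, against 44.1% of all protein-coding genes. The same count was 2 of 12 Kupffer cell and macrophage markers (*Cd68* and *Spi1*), 2 of 12 hepatocyte markers (*Trf* and *Ass1*), 1 of 9 lymphocyte markers (*Cd79a*), 0 of 10 hepatic stellate cell markers, and 0 of 5 cholangiocyte markers. A gene-end region in replicate 3 only lay at *Apoa1* and *Apob* (hepatocyte), *Cd3d* (lymphocyte), *Col1a1* (hepatic stellate cell), and *Epcam* (cholangiocyte). The Kupffer cell genes *Clec4f*, *Timd4*, *Adgre1*, *Vsig4*, and *Marco* had no peak at an end in either list. NF-κB genes are used by many cell types, and the part of other cells in their peaks was not tested.

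In the window of each gene, its body plus 10 kb on either side, the 10 genes together held 78 regions, made of 50 peaks of replicate 2 and 78 of replicate 3. Shared regions numbered 39, of which 12 lay within 1 kb of a gene end and 27 were distal, meaning anywhere else in the window. The remaining 39 regions came from replicate 3 only, 3 at gene ends and 36 distal, and none came from replicate 2 only. A shared gene-end region was present at 9 of the 10 genes, against 44.1% of all protein-coding genes. When peaks had to overlap by at least 50% of each other, 5 of the 10 genes had one, against 22.4% of all protein-coding genes, and the shared gene-end regions of the 10 genes fell from 12 to 5. *Nfkb2* was the exception by the definition of 1 bp, although its annotated starts were covered, as described below. A shared distal region was present at 9 of the 10 genes, against 39.3% of all protein-coding genes, with *Rela* as the gene without one. By the stricter overlap these were 8 of 10 genes and 25.2%, and the shared distal regions of the 10 genes fell from 27 to 16. At least 4 shared regions were found in the windows of *Nfkb1*, *Nfkbia*, *Nfkbiz*, and *Bcl3*, 4 of 10 genes, against 8.27% of all protein-coding genes. By the stricter overlap only *Nfkb1* kept at least 4, with 0 gene-end and 5 distal ones. *Nfkbia* kept 1 and 2, *Nfkbiz* 1 and 1, and *Bcl3* 0 and 2. The share of all protein-coding genes with at least 4 by that overlap was not computed. By the definition of 1 bp, the median was 3 shared regions per gene (range, 1 to 8), against a median of 1 over all protein-coding genes. Windows were of like size, with a median of 34.4 kb for the 10 genes and 37.2 kb for all. These counts stand beside the background of all genes with no test.

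**Figure D1:**
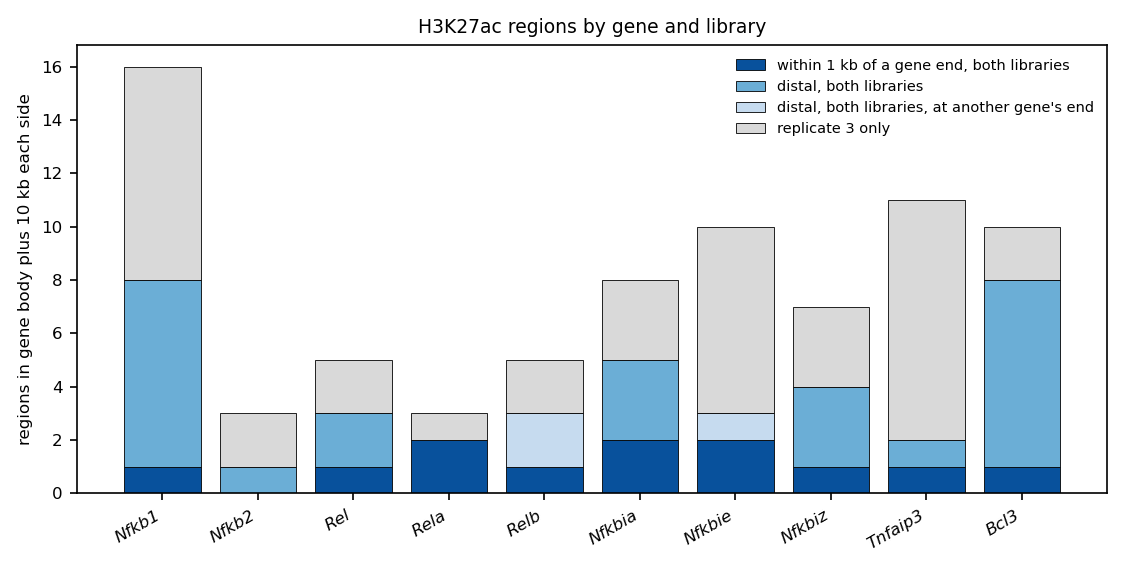
Number of H3K27ac regions (y axis) in the body plus 10 kb of each of the 10 genes (x axis), stacked by place and by library. *Nfkb1* and *Bcl3* have 8 shared regions each, *Nfkb2* has 1, and *Tnfaip3* has 2 shared regions beside 9 that were found in replicate 3 only.

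The promoters are shown first, because the NF-κB subunits bind DNA at κB sites and the peaks of both libraries lay over the starts. RefSeq promoter sequences on GRCm38.p6, from 250 bp before to 50 bp after a start, were matched by symbol for 7 of the 10 genes, with 10 starts in all. *Nfkb1*, *Relb*, and *Nfkbiz* had no match. A shared region lay over 9 of the 10 promoters, against 42.7% of the 21263 promoters of protein-coding genes. Of these promoters, 3 are starts of *Nfkb2* under 1 region. The tenth is an internal start of *Tnfaip3*, which lay in a region of replicate 3 only. The windows below run from 130 bases before to 19 bases after a start, the start base being 0. They are written 5′ to 3′ on the strand of the gene, and capitals mark a match to the NF-κB consensus on either strand.
*Nfkb2*, chr19:46304607-46304756, plus strand: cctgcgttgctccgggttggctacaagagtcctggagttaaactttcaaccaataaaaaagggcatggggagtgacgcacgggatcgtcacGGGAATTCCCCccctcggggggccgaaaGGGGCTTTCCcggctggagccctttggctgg
*Rel*, chr11:23770950-23771099, minus strand: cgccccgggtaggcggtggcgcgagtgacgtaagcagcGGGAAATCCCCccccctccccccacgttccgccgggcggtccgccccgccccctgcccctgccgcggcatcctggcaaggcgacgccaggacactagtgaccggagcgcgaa
*Rela*, chr19:5637411-5637560, plus strand: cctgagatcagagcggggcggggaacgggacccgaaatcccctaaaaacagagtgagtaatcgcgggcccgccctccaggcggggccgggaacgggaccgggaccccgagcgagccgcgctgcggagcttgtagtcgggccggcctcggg
*Nfkbia*, chr12:55492628-55492777, minus strand: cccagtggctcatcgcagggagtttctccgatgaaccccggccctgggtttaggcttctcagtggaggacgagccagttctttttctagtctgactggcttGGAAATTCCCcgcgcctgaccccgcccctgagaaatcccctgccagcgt
*Nfkbie*, chr17:45555570-45555719, plus strand: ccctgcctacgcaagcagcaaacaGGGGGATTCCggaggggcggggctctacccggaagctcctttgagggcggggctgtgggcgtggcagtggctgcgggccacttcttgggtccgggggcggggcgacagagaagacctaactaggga
*Tnfaip3*, chr10:19015391-19015540, minus strand: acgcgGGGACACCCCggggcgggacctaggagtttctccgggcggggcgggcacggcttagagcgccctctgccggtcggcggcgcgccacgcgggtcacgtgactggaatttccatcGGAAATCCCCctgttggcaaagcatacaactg
*Bcl3*, chr7:19822736-19822885, minus strand: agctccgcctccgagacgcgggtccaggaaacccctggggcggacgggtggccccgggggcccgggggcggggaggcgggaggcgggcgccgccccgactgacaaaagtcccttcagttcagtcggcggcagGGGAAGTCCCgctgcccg

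The first 3 lines are subunits and the other 4 are inhibitors or modulators. *Rela* is shown as the gene with a promoter sequence and no match. In the other 6 genes the full promoters held matches at 10 distinct places, and each of the 10 lay inside a peak of both libraries. Peaks of replicate 3 covered all 300 bases of each promoter with a match. Those of replicate 2 did so too, except in *Bcl3*, where they covered 187. Nearly any place in these promoters would lie inside a peak of both libraries, so this count does not link matches to peaks. A match was present in 8 of the 10 promoters, against 4.81% of the 21263 promoters of protein-coding genes. By gene this was 6 of 7, against 5.53% of 17492 protein-coding genes with a promoter sequence. The share was 5.28% among protein-coding promoters under a shared region and 4.46% among the rest. A match is a match of letters and does not show binding.

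In *Nfkb2* the start shown has a palindromic match, GGGAATTCCC, 39 to 30 bases before the start, which also reads as a match one base further on the other strand. A separate match, GGGGCTTTCC, follows 11 to 2 bases before the start. *Nfkb2* has 2 more annotated starts downstream, at positions 46305695 and 46305930 of chromosome 19. Between them lies GGGACTTTCC, 10 to 19 bases after the former and 225 to 216 bases before the latter. A further match, GGAATGTCCC, a match when read on the opposite strand, lies 236 to 227 bases before the former. *Rel* has a match that fits the consensus on both strands, GGGAAATCCC, 92 to 83 bases before its start. The matches in *Nfkbia* (GGAAATTCCC), *Tnfaip3* (GGAAATCCCC), and *Bcl3* (GGGAAGTCCC) lie close to their starts, 29 to 20 and 12 to 3 bases before for the former 2 genes and 2 to 11 bases after for *Bcl3*. *Nfkbie* has GGGGGATTCC 106 to 97 bases before the start, and *Tnfaip3* has GGGACACCCC, 125 to 116 bases before.

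The distance from these places to the highest point of a peak, its summit, was measured. Matches were sought only from 250 bp before to 50 bp after a start. *Rela*, with no match, had summits 27 bp (replicate 2) and 118 bp (replicate 3) before its start. Distances at promoters of other genes were not computed, so those below do not link matches to summits. In *Nfkbia* the match was 7 bp from the nearest summit of replicate 2 and 82 bp from that of replicate 3. In *Nfkbie* the distances were 24 bp and 19 bp. *Tnfaip3* had its nearer match 53 bp and 27 bp from the summits, and *Bcl3* had its match 44 bp and 59 bp away. For *Rel* the distances were 85 bp and 211 bp, so the libraries placed the summit differently there. At the *Nfkb2* start shown, both libraries placed a summit at nearly the same base, 104 bp (replicate 2) and 105 bp (replicate 3) before the start. The places downstream in *Nfkb2* were up to 168 bp from a summit of replicate 2 and up to 1077 bp from one of replicate 3, because replicate 3 has 1 wide peak with 1 summit where replicate 2 has 2 peaks.

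**Figure D2:**
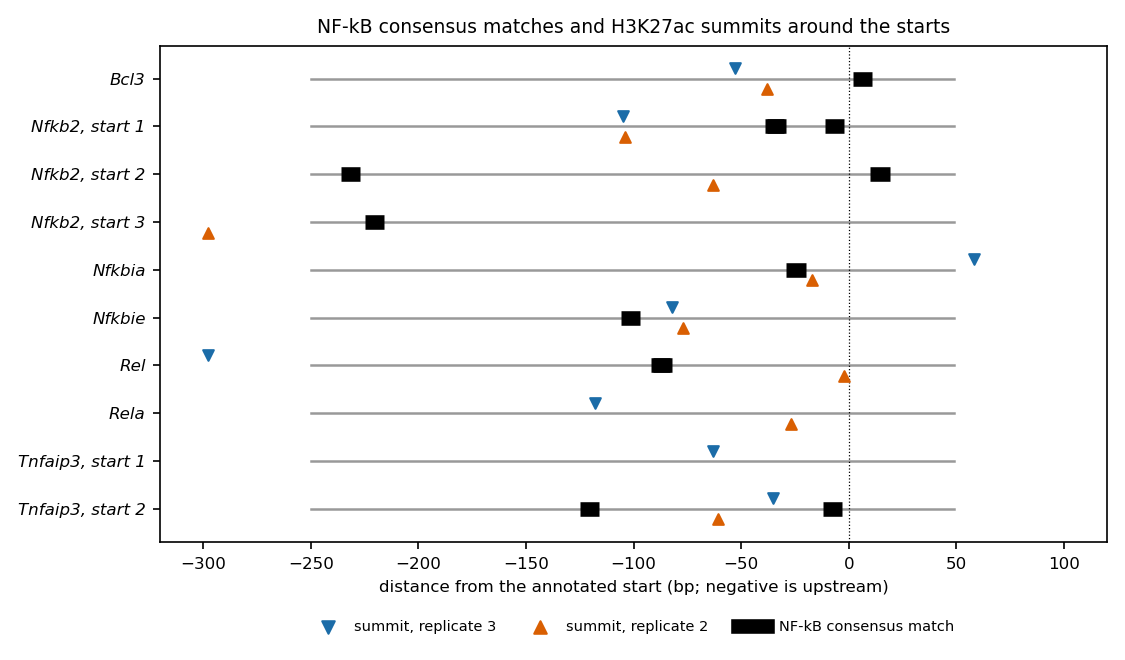
Places of NF-κB consensus matches (black) and of peak summits of replicate 2 (orange) and replicate 3 (blue) along the 10 promoters (y axis), by distance from the annotated start in bp (x axis, gray line from 250 bp before to 50 bp after). Summits over 300 bp from a start are not drawn. Start 2 of *Tnfaip3* is the one whose sequence is given, and start 1 is internal, with no match and a summit of replicate 3 only.

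Other short motifs were counted in the same promoters, on both strands. The GC box GGGCGG was present in 8 of the 10 promoters, with 5 copies in *Rel*, and in 46.2% of protein-coding promoters. A match to the TATA box TATAAA was found in *Nfkbia* and at the outer start of *Tnfaip3*, against 12.6% of protein-coding promoters. Neither match lies fully inside the windows printed above. In *Nfkbia* it lies after the start, on the opposite strand, and in *Tnfaip3* it lies upstream of the printed window. The AP-1 motif TGANTCA was found in *Nfkbie*, at the outer start of *Tnfaip3*, and at the middle start of *Nfkb2*, against 6.99%. The median protein-coding promoter held 13 CpG dinucleotides. The 9 promoters under a shared region held 15 (*Nfkbia*) to 42 (*Rel*), and the internal start of *Tnfaip3* held 6.

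Of the subunits, *Rela* encodes p65, which with p50 forms the main dimer of the canonical pathway. Its 2 shared regions both lay at gene ends. The one over the start, chr19:5636826-5638184, had 10.7-fold enrichment in replicate 2 and 34.5-fold in replicate 3 (54.2nd and 85.5th percentiles), and the one beyond the other end, chr19:5648694-5649170, had 8.81 and 19.3 (44.8th and 74.1st percentiles). The former reached into the body, and *Rela* had no shared region in its body away from its ends. *Rel* encodes c-Rel. Its start lay in chr11:23770047-23771915, with 24.4-fold enrichment in replicate 2 and 39.1-fold in replicate 3 (89.8th and 87.7th percentiles). It had 2 shared distal regions in its body, 2.75 kb and 16.6 kb from the start. The nearer one had a fold enrichment of 10.8 and 19.9, and the farther one was higher in both lists, at 14.9 and 42.0.

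*Relb*, the partner of p52 in the noncanonical pathway, had the highest gene-end rank of the 10 genes in replicate 2. Its region chr7:19628249-19630014 had 35.2-fold enrichment in replicate 2 and 74.5-fold in replicate 3 (97.1st and 96.4th percentiles). Both of its shared distal regions lay outside the gene at ends of its neighbours, *Clasrp* (17.6 and 35.7) and *Clptm1* (7.20 and 2.94), so no shared region lay in the body of *Relb* away from its ends. *Nfkb2* encodes p100, the precursor of p52. It had 1 shared region, chr19:46304059-46306212, which held all 3 of its annotated starts. Enrichment there was 23.7-fold in replicate 2 and 65.5-fold in replicate 3 (89.0th and 95.1st percentiles), and it was 2154 bp wide. The region counted as distal because it lay 3.07 kb inside the outermost end of the annotated gene. With the starts of the promoter table also taken as ends, 10 of 10 genes had a shared gene-end region, a count made after these values were seen.

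*Nfkb1* encodes p105, the precursor of p50, and is the longest of the 10 genes, with a body of 107 kb. Its gene-end region, chr3:135690325-135692149, had 15.3-fold enrichment in replicate 2 and 21.7-fold in replicate 3 (72.4th and 76.6th percentiles). It had 7 shared distal regions, all of them in its body. They ranged in fold enrichment from 4.09 to 13.4 in replicate 2 and from 9.77 to 36.1 in replicate 3. The highest in both lists, chr3:135674602-135675274, lay 17.0 kb from that end, and in replicate 3 it ranked above the gene-end region (86.3rd percentile). A like region, chr3:135606852-135607617, lay 84.7 kb from the end, with 11.98 and 27.1. Its window of 127 kb held 8 shared regions, more than in 98.8% of protein-coding genes, but 0.628 per 10 kb, more than in 85.7%. *Nfkb1* also had 8 distal regions of replicate 3 only, the highest at 15.2.

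The 5 subunit genes together had 5 shared gene-end regions, with median enrichments of 15.3 (replicate 2) and 34.5 (replicate 3), and 12 shared distal regions, with medians of 10.5 and 19.7. The highest of these distal regions in both lists, with 23.7 and 65.5, is the *Nfkb2* region that holds its annotated starts. The gene-end medians of the subunits therefore leave it out, and medians with it counted as a gene-end region were not computed. The 5 inhibitor genes had 7 shared gene-end regions, with medians of 21.7 and 46.3, and 15 shared distal regions, with medians of 8.57 and 17.1. The median of 21.7 is the value of an *Nfkbie* region that also lay at an end of another gene, *Slc35b2*. All 5 inhibitor genes had both kinds of region. Shared regions covered 28.3 kb in the windows of the inhibitor genes, 11.6 kb of it at *Nfkbia*. In the windows of the subunits they covered 15.5 kb, 5.66 kb of it at *Nfkb1*. The groups hold 5 genes each and their ranges of fold enrichment overlap, so these are descriptions of the 2 groups.

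**Figure D3:**
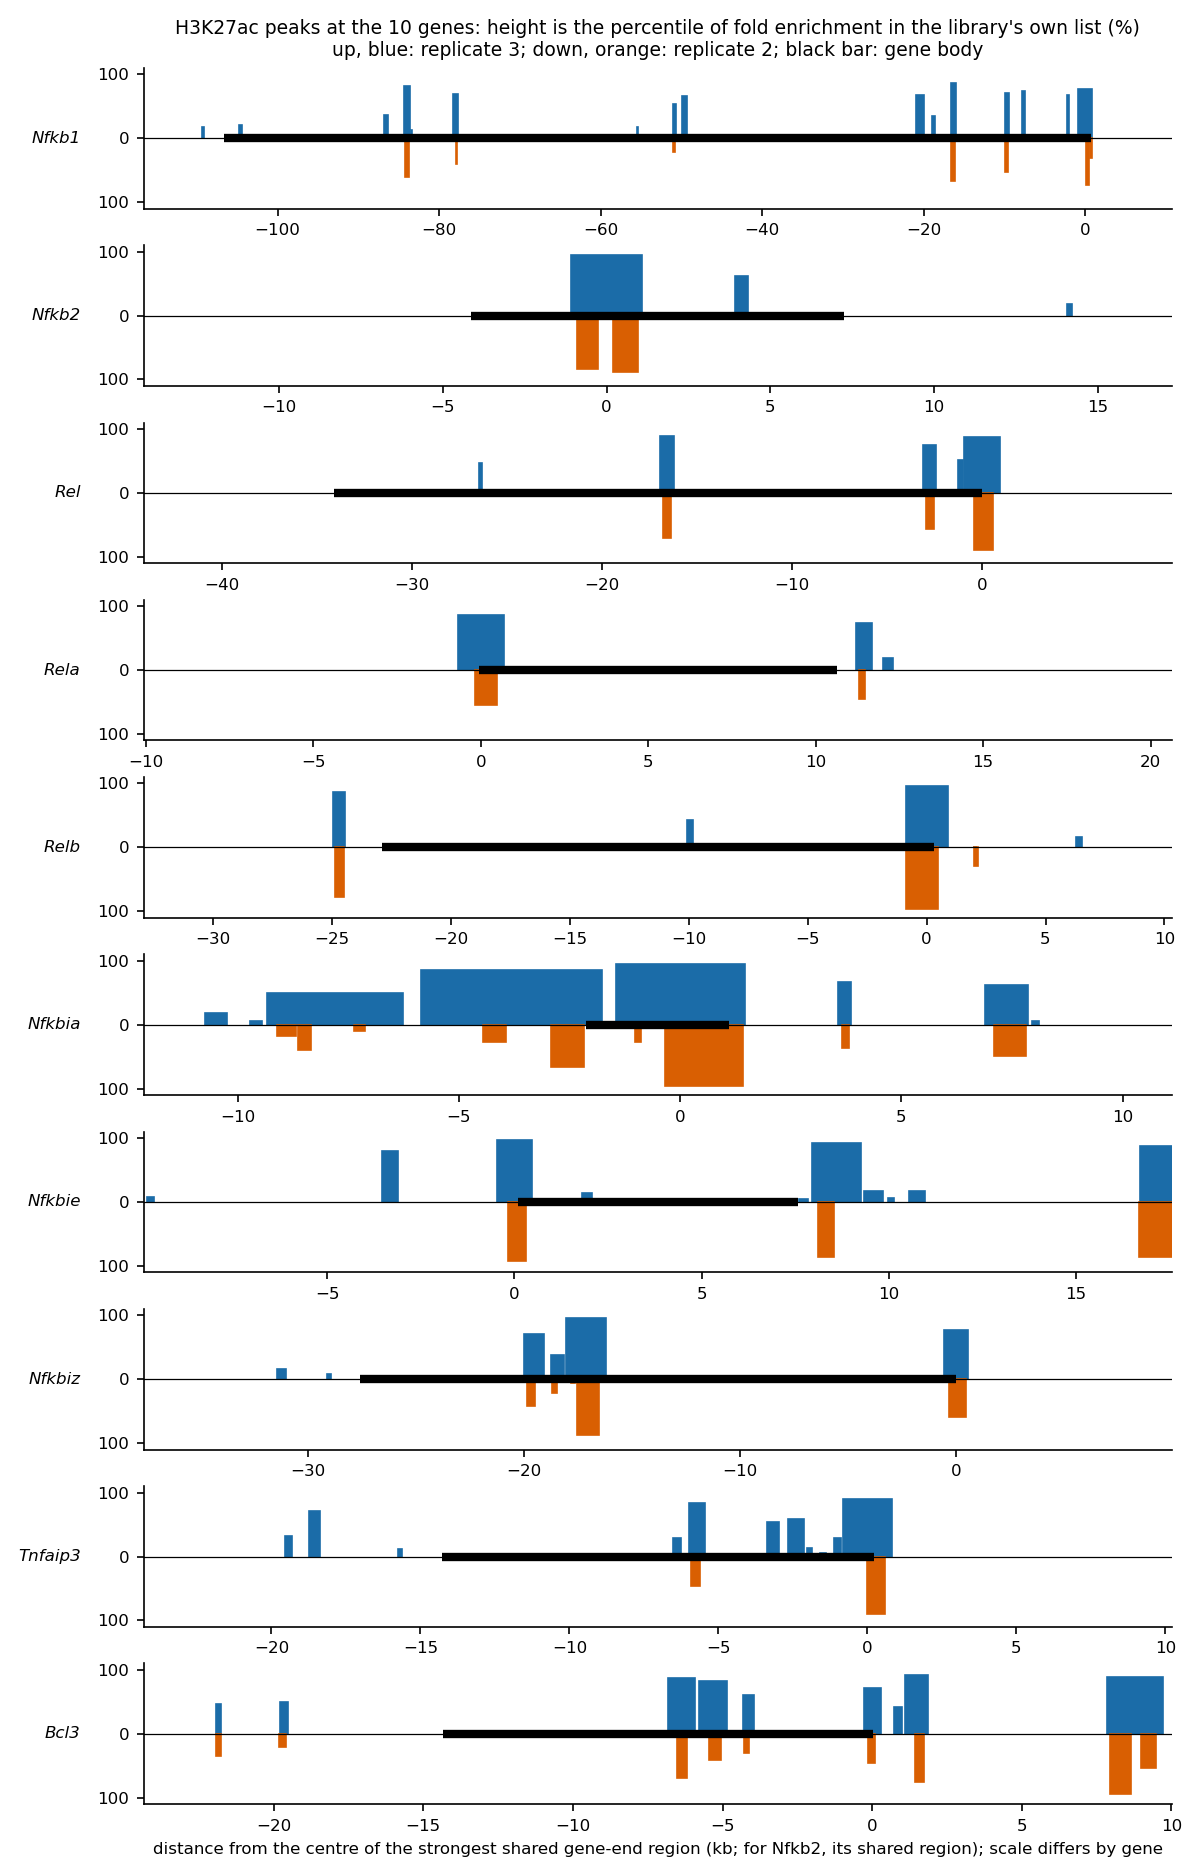
Peaks at the 10 genes, 1 row per gene, by distance in kb from the centre of the strongest shared gene-end region, or for *Nfkb2* of its 1 shared region (x axis, in the direction of rising genome position; scale differs by row). The y axis gives the percentile of fold enrichment in the library's own list, upward in blue for replicate 3 and downward in orange for replicate 2, and the black bar is the gene body. *Nfkbia* is covered by wide peaks on either side of its short body, *Nfkb1* by scattered narrow ones, and *Nfkbiz* has its tallest peak inside the body.

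*Nfkbia* encodes IκBα, the inhibitor that NF-κB itself induces and that retains p65 dimers in the cytoplasm. Its body is only 3.24 kb, and its window of 23.2 kb was covered over 50.1% of its length by shared regions, 11.6 kb in all. This was more covered length than in 99.8% of protein-coding genes. The region over its start, chr12:55490078-55492993, had 33.0-fold enrichment in replicate 2 and 69.2-fold in replicate 3 (96.2nd and 95.7th percentiles). A wider one of 4374 bp at its other end, chr12:55485680-55490053, had 13.4 and 33.6. Beyond it lay a shared distal region of 3089 bp, chr12:55482190-55485278, with 8.13 and 8.84. Shared regions over all genes had a median width of 701 bp, and 1774 bp marked the widest 5%. The 2 shared regions upstream of the start lay 2.60 kb and 6.26 kb from it, with 8.11 and 14.3 for the nearer and 9.52 and 12.4 for the farther. *Nfkbia* is 1 of 2 genes here with as many or more peaks in replicate 2 (10) as in replicate 3 (8), since replicate 3 joined what replicate 2 split. The covered length is that of merged peaks. In the region of 4374 bp, replicate 3 had a peak of 4081 bp and replicate 2 had peaks of 519, 740, and 419 bp. By an overlap of at least 50% of each peak, *Nfkbia* kept 1 shared gene-end region and 2 shared distal ones. From 10 to 50 kb from its ends there were 5 more shared regions, none of them at or in another protein-coding gene, the highest at 26.8 in replicate 2 and 58.7 in replicate 3.

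*Nfkbie* encodes IκBε. Its start lay in chr17:45555150-45556061, which had the highest fold enrichment of any gene-end region of the 10 genes in replicate 3, 83.5 (97.4th percentile), and 27.1 in replicate 2 (92.3rd percentile). Its other shared regions belong by position to its neighbours. The one within 1 kb of its other end, with 21.7 and 53.8, also lay at an end of *Slc35b2*, and its 1 shared distal region, with 21.7 and 40.4, lay at an end of *Hsp90ab1*. Without those, *Nfkbie* had 1 shared region in its window. *Nfkbiz* encodes IκBζ, a nuclear member of the IκB family that modulates the transcription of some NF-κB targets. Its gene-end region, chr16:55838414-55839519, had 11.5-fold enrichment in replicate 2 and 22.4-fold in replicate 3 (59.4th and 77.3rd percentiles), and lay within 1 kb of an end of *Nxpe3* as well. Its highest region was inside the body, chr16:55820934-55822770, 17.1 kb from that end, with 22.4 and 70.0 (87.2nd and 95.8th percentiles). This was the highest distal fold enrichment of the 10 genes in replicate 3. Its 2 other distal shared regions lay next to it, with 8.57 and 17.1 and with 6.70 and 6.92. Like *Nfkb1* and *Relb*, *Nfkbiz* had no promoter sequence, so whether its distal regions hold an annotated start was not checked.

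*Tnfaip3* encodes A20, an enzyme that edits ubiquitin on signaling proteins of the pathway. The region over its outer start, chr10:19014369-19016020, had 25.1-fold enrichment in replicate 2 and 46.3-fold in replicate 3 (90.7th and 90.4th percentiles). A single shared distal region, chr10:19009196-19009748, lay 5.94 kb inside the body with 9.19 and 32.2. In contrast, 9 distal regions came from replicate 3 only, more than at any other of the 10 genes. The highest of these, with 16.9, lay 4.28 kb beyond the far end of the gene, and the internal start lay in one with 9.77. *Bcl3* encodes a nuclear IκB protein that joins p50 and p52 dimers on DNA. The region over its start, chr7:19822524-19823092, was among the lowest of the gene-end regions, with 8.89 in replicate 2 and 17.1 in replicate 3 (44.9th and 71.1st percentiles). Around it lay 7 shared distal regions, 3 of them in the body. The highest in replicate 2, chr7:19830666-19832520, lay 8.77 kb upstream of the start with 28.9 and 43.4 (93.7th and 89.3rd percentiles), and the highest in replicate 3, chr7:19823914-19824674, lay 1.47 kb upstream with 16.3 and 51.9 (75.5th and 92.1st percentiles). Both ranked above the region over the start in both lists. With 2.33 shared regions per 10 kb of window, *Bcl3* had a higher density than 99.9% of protein-coding genes. By an overlap of at least 50% of each peak, *Bcl3* kept 0 shared gene-end regions and 2 shared distal ones. By that overlap it had more shared regions than 85.7% of protein-coding genes, against 98.8% by 1 bp. Its density by that overlap was not computed.

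Of the 12 shared gene-end regions, 10 lay above the median fold enrichment of the list of replicate 2 and 12 above that of replicate 3. Their median percentiles were 79.2 and 86.6. Of the 27 shared distal regions the counts were 12 and 22, and their median percentiles were 46.3 and 74.5. Over all shared regions of the series, gene-end and distal together, the median percentiles were 53.9 and 81.1. A place above the list's median is thus common among shared regions, above all in replicate 3. The share above it was not computed for gene-end or distal regions of other genes. In width, the gene-end regions had a median of 1506 bp and the distal ones 673 bp. By position, 17 of the distal regions lay in the body of their gene and 10 outside, and 3 of the 27 lay at an end of another gene. The 36 distal regions of replicate 3 only were low in its list, with a median fold enrichment of 5.05 (range, 3.91 to 25.4), and 7 of them lay above the list's median. Over all regions of replicate 3 only, at gene ends or elsewhere, the median was also low, 6.20. With both lists cut to equally many strongest peaks, 6 distal regions of replicate 3 only were left at the 10 genes. Across the 39 shared regions, ranks in the 2 lists had a Spearman correlation of 0.90, and over all 24199 shared regions it was 0.84. These are correlations across regions of the same 2 libraries, given as a description.

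**Figure D4:**
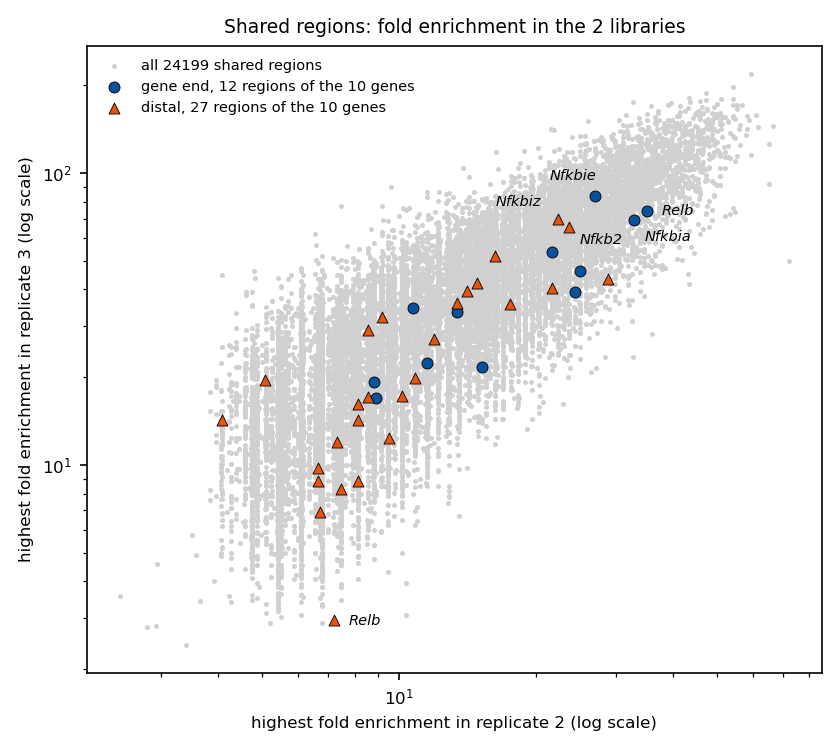
Highest fold enrichment in replicate 2 (x axis) and replicate 3 (y axis), both on log scales, for all 24199 shared regions (gray) and for those of the 10 genes at gene ends (blue circles, 12) and distal (orange triangles, 27). The gene-end regions of *Relb*, *Nfkbia*, and *Nfkbie* lie toward the upper right together with the body regions of *Nfkb2* and *Nfkbiz*, and the distal *Relb* region at an end of *Clptm1* lies at the lower edge of the cloud.

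Outside the windows, between 10 and 50 kb from the gene, most shared regions were those of neighbours. *Rel* and *Tnfaip3* had none in that range. *Nfkb1* had 4, of which 2 were free of other protein-coding genes (highest, 15.9 and 28.3), and *Bcl3* had 4, of which 1 was free of them (34.6 and 51.2). *Relb* and *Nfkbie* had 4 each, of which 1 was free. *Rela*, *Nfkb2*, and *Nfkbiz* had 4, 3, and 1, and none of these was free.

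The other genes of the pathway were read at their ends in the same way, from lists of 67 genes in 4 roles. A shared gene-end region was present at 52 of the 67 (77.6%), a region of replicate 3 only at 5, and no peak at 10. The share with a shared gene-end region was 44.1% over all protein-coding genes. By an overlap of at least 50% of each peak, 26 of the 67 had a shared gene-end region, against 22.4% of all protein-coding genes. Among receptors and adaptors, 18 of 20 had a shared gene-end region. *Il1r1*, the receptor of interleukin-1, had one in replicate 3 only (5.86) but 9 shared distal regions, and *Irak2*, a kinase below that receptor, had 7 shared regions. The TNF receptor gene *Tnfrsf1b* had no peak at an end, while *Tnfrsf1a* had 13.5 in replicate 2 and 13.3 in replicate 3. Of the kinases and their partners, 10 of 11 had a shared gene-end region. *Ikbke* had no peak at an end, and *Map3k8* had the most shared regions, 4, followed by *Ikbkg* and *Map3k14* with 3 each. Of 12 other inhibitors and ubiquitin editors, 11 had a shared gene-end region, and *Tnip3* had no peak there. *Tnip1*, which encodes a partner of A20, had 5 shared regions, and *Otulin*, which encodes a deubiquitinase of linear chains, had 4.

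Of the known targets of NF-κB, 13 of 24 (54.2%) had a shared gene-end region, against 44.1% of all protein-coding genes, and 20 of 24 had a shared distal one. A shared distal region was present at 13 of 20 receptors and adaptors, 7 of 11 kinases and their partners, and 7 of 12 other inhibitors and ubiquitin editors. Over all protein-coding genes the share with a shared distal region was 39.3%. *Cflar*, an inhibitor of apoptosis, had 7 shared regions and *Selp*, which encodes the adhesion molecule P-selectin, had 5. A gene-end region in replicate 3 only was found at *Ccl20*, *Cx3cl1*, *Ltb*, and *Tnf*, with a fold enrichment of 4.56, 5.54, 13.4, and 4.03, respectively. No peak lay at an end of *Sele*, *Ccl5*, *Il6*, *Il1b*, *Ptgs2*, *Nos2*, or *Lta*. *Sele*, which encodes E-selectin, nevertheless had 3 shared distal regions in its window, and *Il6*, *Il1b*, *Ptgs2*, and *Nos2* had no shared region in theirs. Other families of inducible transcription factors were read beside the 10 genes. Of the AP-1 family, 9 of 10 had a shared gene-end region, 9 had a shared distal one, and the median was 3.5 shared regions per gene. Of the interferon regulatory factors, 5 of 9 had a shared gene-end region and 4 had a shared distal one, with a median of 1. In both counts the AP-1 family equalled the 10 NF-κB genes.

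**Figure D5:**
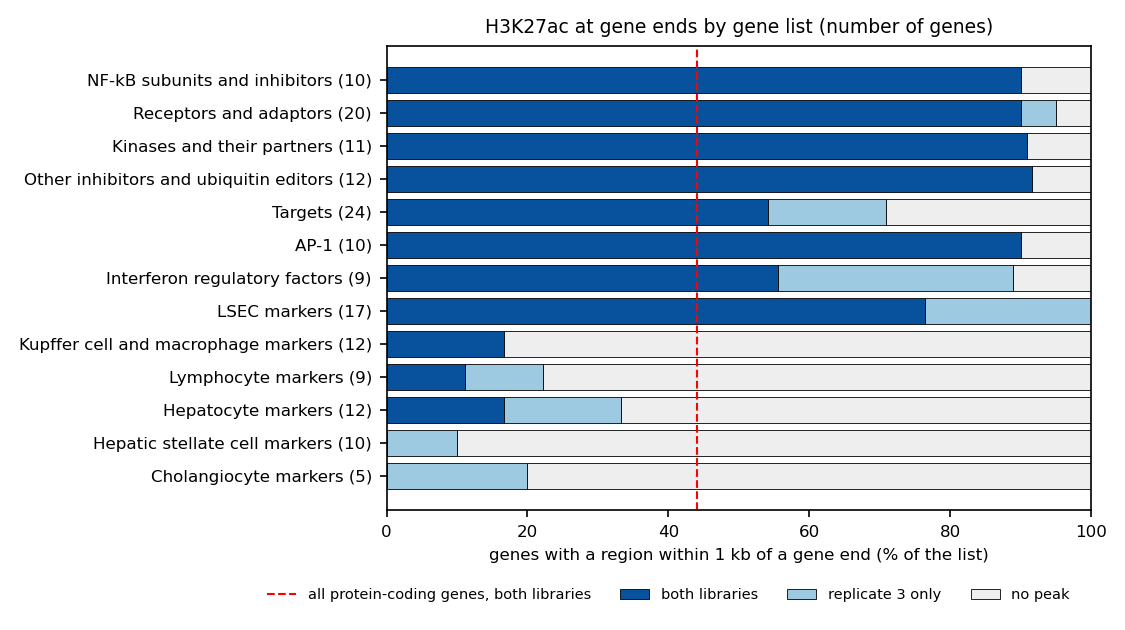
Share of the genes of each list (x axis, %) with a region within 1 kb of a gene end in both libraries (dark blue), in replicate 3 only (light blue), or with no peak there (gray), with the number of genes in parentheses. The dashed line marks the 44.1% of all protein-coding genes with a shared region; the NF-κB genes, receptors, kinases, inhibitors, and AP-1 lie to its right at 90% to 91.7%, the targets at 54.2%, and markers of other liver cells to its left.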

How the data were processed

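H3K27ac ChIP-Seq of isolated mouse LSECs gave 2 libraries of 1 condition, replicates 2 and 3, with 1 input each. Fixation took 10 minutes in 1% formaldehyde, and 125 mM glycine was then applied for 5 minutes. The sample records describe sonication and a ligation kit, whereas the methods describe tagmentation. The submitters' processing notes name cutadapt 0.4.4, BWA 0.7.17, Picard 1.67, MACS2 2.0.10, bedtools 2.27.1, and mm10, without roles. Whether inputs entered the calls is not given in the sources used here.

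The authors called peaks per library. The deposited fold enrichment is a ratio of signal to background, and the deposited −log10 p-value and −log10 q-value and score come from the same caller. All q-values were at most 0.00907 (replicate 2) or 0.00981 (replicate 3). The deposited lists give no read counts, so depth is unknown and no interval was computed. A count of peaks can rise with depth.

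Peaks were merged into regions by an overlap of at least 1 bp. A gene-end region touched 1 kb around either end of the RefSeq gene (GRCm38.p6), since strand was known for 7 of the 10 genes only. Promoters came from RefSeq. A region's fold enrichment is that of its highest peak. The scripts were tested on simulated data. The genes, lists, and rules were chosen with earlier results of these data known. Named are the 10 genes, neighbours whose end or body holds one of their regions, pathway genes with no gene-end peak or 1 in replicate 3 only, and the 2 per role with the most shared regions (ties included). Marker genes, *Tnfrsf1a*, and the distal counts of *Sele*, *Il6*, *Il1b*, *Ptgs2*, and *Nos2* were added after values were seen. The planned comparison of protein sequences was not made. Software was matplotlib 3.10.9, scipy 1.17.1, pandas 2.3.3, numpy 2.4.6, and Python 3.11.15.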

Additional observations from a re-analysis of the deposited data

How the results depend on the processing

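The 10 genes were described again under a q-value of 1e-05 or less, equal numbers of strongest peaks, a reciprocal overlap of at least 50%, other windows and rankings, and each library alone. A count stayed within the limits set when it changed by at most 1.5-fold. A percentile stayed when it moved by less than the standard deviation of 2 values. These were the values with 1 library left out or, for gene-end peaks, those of the 2 libraries. Of the values for the genes together, 48 stayed and 14 moved, settings with 1 library left out included. For single genes, 76 stayed and 48 moved. A reciprocal overlap of at least 50% lowered the genes with a shared gene-end region from 9 to 5, the shared gene-end regions from 12 to 5, the shared distal regions from 27 to 16, and the pathway genes from 52 to 26. The cause of these falls was not tested. Without a flank there were 17 shared distal regions and 19 of replicate 3 only, and with a flank of 50 kb there were 56 and 82. With both lists cut to equally many strongest peaks, distal regions of replicate 3 only fell from 36 to 6, and the median gene-end percentile in replicate 3 from 87.7 to 70.7. Ranked by −log10 p, the latter was 92.4. The median percentile of the genes by shared regions, 83.7, became 93.8 by base pairs covered. With 1 library left out, values ranged from 9 to 9 genes with a gene-end region, 12 to 15 gene-end regions, 27 to 63 distal regions, 9 to 10 genes with a distal region, 52 to 57 pathway genes, and 83.6 to 88.7 for that percentile. The 63 distal regions stood without replicate 2. Leaving out a library kept the merged regions and asked only for a peak of the other library, so counts could not fall. No region of the 10 genes came from replicate 2 only, so their counts without replicate 3 had to stay the same. Only the 5′ end gave 6 of the 7 genes of known strand. No paired analysis was possible because the H3K27ac libraries form 1 condition and the inputs of the same numbers were not analysed on their own.

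Precision is limited by 2 libraries of unknown depth, by a difference of 2.39 times in the number of peaks, and by positions alone linking regions to genes.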

Other observations

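Some strong regions were missing from replicate 2. The region chr17:45552067-45552489, 3.42 kb upstream of the *Nfkbie* start, had a fold enrichment of 25.4 in replicate 3 and no peak in replicate 2, whereas 92.1% of the 2534 other replicate 3 peaks within 10% of that value lay in a region with a peak of replicate 2. For the region beyond the far end of *Tnfaip3* (16.9) that share was 66.7% of 3336 peaks, and for the region at its internal start (9.77) it was 22.4% of 4826. In *Nfkb1* the 2 highest body regions of replicate 3 only, with 15.2 and 15.0, had shares of 56.6% and 55.0%. These comparisons were chosen after the values were seen.

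In the opposite direction, the 222 bp region at an end of *Clptm1* in the *Relb* window was at the 28.7th percentile of replicate 2 and at the 0.237th percentile of replicate 3. The fold enrichments of replicate 2 took 1049 different values over 26975 peaks and those of replicate 3 took 5457 over 64498, so peaks of different genes can share a value exactly, as the end of *Nfkbia* and the highest body region of *Nfkb1* did at 13.4 in replicate 2.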
